A study of Mus musculus with 8 samples.

Results

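The genes described here carry a fatty acid from the blood into the mitochondrial matrix of a heart cell and break it down there. They were 38 genes chosen by name for uptake, activation, the carnitine shuttle, beta-oxidation, the electron transfer flavoproteins and well-known PPARalpha targets, out of 55383 features in the deposited gene table. The choice was by function and used no threshold on a measured value, but it was made with earlier results of these data known. All 38 were found by symbol, and all 38 had a normalized count of at least 10 in each of the 4 hearts compared, from 60.1 for Acsl6 to 30098 for Lpl.

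Total RNA of hearts, taken whole according to the labels, from mice of about 5 weeks, on an inbred C57BL/6N nuclear background, was sequenced in strand-specific TruSeq libraries. The control hearts were labelled Ssbp1+/+ (n = 2) and the knockout hearts Ssbp1-/- (n = 2). Ssbp1 encodes mtSSB, the protein that coats single-stranded mitochondrial DNA. The study removed the gene with a Cre recombinase driven by Ckmm, the muscle creatine kinase promoter, which acts in heart and skeletal muscle, so other cells of the heart keep the gene; its controls carry the loxP-flanked gene without Cre, and the labels do not say which mouse carried Cre. A further pair of mice, 585H and 586H, had a title and a genotype field that contradict each other and entered no comparison.

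The heart draws most of its energy from fatty acids. Lipoprotein lipase frees them from circulating triglyceride, CD36 and binding proteins take them up, acyl-CoA synthetases join them to coenzyme A, and the carnitine shuttle moves the acyl group across the inner mitochondrial membrane. Each turn of beta-oxidation then shortens the chain and passes electrons to NADH and, through the electron transfer flavoprotein, to ubiquinone. PPARalpha, a nuclear receptor that binds fatty acids, is known to drive many of these genes in the heart.

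Ssbp1, the targeted gene, was read first as a check of the labels. Its normalized count was 177 and 216 in controls 1 and 2 and 170 and 163 in knockouts 1 and 2. Both knockouts lay below both controls, but the log2 fold change of -0.23 (standard error 0.16) stayed short of the threshold (limma adjusted p = 0.89), so the gene's total RNA does not by itself mark which hearts were knockouts. Reads of the whole gene, rather than of the deleted exon, stand behind these values. Sequencing gave 19716305 to 25682093 reads per library, of which 123825 to 189875 fell on the 38 genes. Mitochondrial RNA took 62.7% and 66.7% of normalized counts in controls and 58.0% and 56.2% in knockouts, and its part in the results was not tested. Control 2 stood apart from the other hearts in Ucp3, Angptl4 and Pdk4, and knockout 2 in erythroid markers, and values without single libraries stand beside the members they move most.

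Promoter sequences are shown for the members whose unadjusted p was under 0.05, as far as a window matched, since PPARalpha and related receptors bind repeats of the hexamer AGGTCA. Windows run from 250 bases before to 50 bases after a RefSeq gene start on GRCm38.p6. They matched 31 of the 38 genes, in 37 windows, and not Lpl, Angptl4, Cpt1b, Crat, Acaa2, Decr1 and Acot13. Capitals mark AGGTCA or, on the other strand, TGACCT.
Ucp3, chr7:100472741-100473040, plus strand: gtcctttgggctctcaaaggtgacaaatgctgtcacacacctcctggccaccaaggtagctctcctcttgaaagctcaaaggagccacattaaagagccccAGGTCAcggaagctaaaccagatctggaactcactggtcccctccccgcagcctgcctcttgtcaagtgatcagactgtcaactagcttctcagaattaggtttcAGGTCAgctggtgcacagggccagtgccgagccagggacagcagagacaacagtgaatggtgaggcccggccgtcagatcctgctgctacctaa
Acsl6, chr11:54303574-54303873, plus strand, the first of 3 windows: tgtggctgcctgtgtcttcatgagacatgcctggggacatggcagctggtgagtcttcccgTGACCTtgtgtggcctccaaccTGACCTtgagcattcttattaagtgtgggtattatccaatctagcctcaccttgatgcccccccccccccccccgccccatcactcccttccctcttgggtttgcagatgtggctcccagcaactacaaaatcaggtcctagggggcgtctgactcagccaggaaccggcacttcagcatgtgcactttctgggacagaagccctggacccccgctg
Cpt1a, chr19:3323051-3323350, plus strand: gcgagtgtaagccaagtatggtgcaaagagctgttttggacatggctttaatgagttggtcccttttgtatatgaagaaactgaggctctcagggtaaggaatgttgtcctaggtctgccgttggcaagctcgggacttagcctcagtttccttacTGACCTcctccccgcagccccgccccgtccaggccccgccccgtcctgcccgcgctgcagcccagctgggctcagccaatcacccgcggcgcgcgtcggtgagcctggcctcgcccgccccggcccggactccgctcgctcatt
Acot2, chr12:83987611-83987910, plus strand: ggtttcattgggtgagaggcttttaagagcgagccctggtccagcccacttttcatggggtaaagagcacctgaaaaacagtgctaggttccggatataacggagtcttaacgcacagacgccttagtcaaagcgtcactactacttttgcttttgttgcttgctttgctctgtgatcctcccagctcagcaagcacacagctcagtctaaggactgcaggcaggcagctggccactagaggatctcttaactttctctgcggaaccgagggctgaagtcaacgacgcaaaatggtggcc
The Ucp3 window held 2 hexamers, that of Cpt1a 1 and that of Acot2 0. The first Acsl6 window held 2, and each of the other Acsl6 windows held 0. Over all member windows, 10 of 37 (27%) held at least 1 hexamer on either strand, against 16.3% of all 32851 mouse windows of the same length. The 9 genes with one were Acacb, Acadm, Acadvl, Acsl6, Cd36, Cpt1a, Echs1, Plin5 and Ucp3. A longer form, AAGGTCA, which contains the hexamer, was in the windows of Acacb, Acadm and Acsl6 (8.11% of windows, against 4.72% of all). Single hexamers were counted here, not repeats, and Plin5 entered with overlapping windows that each held 1. The 38 genes were chosen in part as PPARalpha targets, and the difference in share was not tested. A match describes these letters only and was not tested as a binding site.

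The 38 genes spanned a wide range of levels, and their order was much the same in both groups. Per kb of exon, the highest control means were those of Fabp3, the fatty acid binding protein of heart muscle (22706 normalized counts per kb), Cd36 (3683), Acaa2, the thiolase that closes the beta-oxidation cycle (3407), Lpl (2834) and Acadvl, the dehydrogenase for very long chains (2418). The lowest were Acsl6 (12.3), Acsl3 (14.5) and Angptl4 (42.5). Exon length here counts every annotated exon of a gene, over all its transcripts. It came to 10478 bp for Lpl, 6595 bp for Hadhb and 3590 bp for Cd36. The coding transcripts of these genes held 3933, 2132 and 3645 distinct words of 31 bases. The order between genes thus rests on the length taken, and other lengths were not tried. In the knockouts the same 5 genes stood highest, with Acaa2, Cd36, Acadvl and Lpl at 3268, 3132, 2619 and 2258 per kb behind Fabp3 at 21554. The ranges of Cd36 and Acaa2 overlapped in each group, so the order of this pair is not resolved in either. Fabp3 shares 35.2% of its 31-base words with Fabp3-ps1, and its reads could be split between both. Acot2 moved from place 27 of 38 in the controls to place 23 in the knockouts, the largest shift upward among these genes.

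**Figure D1:**
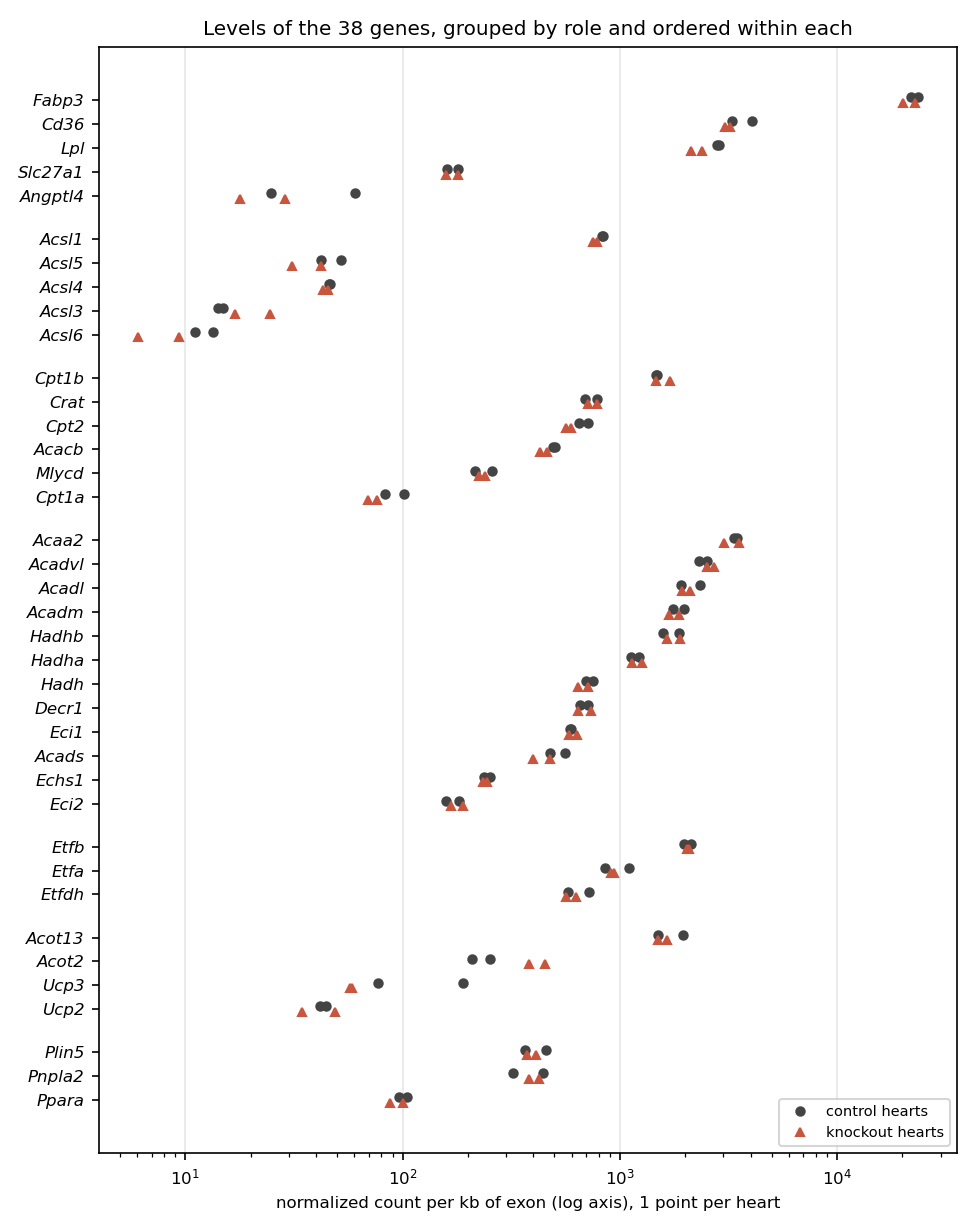
Normalized count per kb of exon (log axis) of each of the 38 genes, grouped by role and ordered by the control mean, with 1 point for each control (circles) and knockout (triangles) heart. Exon length counts all annotated exons of a gene. Fabp3 stands highest and Acsl6 lowest in both groups, and the points of the groups overlap in 27 of the 38 genes.

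Summed over the 38 genes, the share of nuclear normalized counts was 1.73% and 1.89% in the control hearts, against 1.77% and 1.64% in the knockout hearts. These ranges overlap. Of the length-corrected sum over the 38 genes, uptake genes made up 52.1% in both controls and 50.7% and 50.1% in the knockouts. The beta-oxidation enzymes made up 27.8% and 27.7% in controls and 28.9% and 28.7% in knockouts. These shares rest on the same exon lengths, are descriptions of the 4 libraries and were not tested.

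Between knockout and control hearts, none of the 38 genes passed the adjusted threshold of 0.05 in limma, where 17 of all 14522 genes tested did (0.117%). The lowest adjusted p among them was 0.299, for Acot2. Of the other tools, edgeR called 0 of the 38 and DESeq2 called 1, Acot2 (adjusted p = 0.000545). At an unadjusted limma p under 0.05, Acot2 was higher and Lpl, Acsl6, Cpt1a and Ucp3 were lower. That is 13.2% of the 38 genes, beside 6.11% of all genes tested. The number depended on the setting. It was 1 (2.63%, beside 6.4% of all genes tested) without a mean-variance trend and 3 (7.89%, beside 3.62%) by DESeq2. Under the scaling that includes mitochondrial RNA it was 15 (39.5%, beside 19.5%), all of them higher in the knockouts. Acot2 was the one gene of the 5 above among them. The number also changed when control 1, control 2 or knockout 2 was left out. Both knockouts lay above both controls in 2 genes (5.26%, beside 18.1% of all genes tested) and below both in 9 genes (23.7%, beside 17.5%). In bulk heart RNA, fewer cells of a type and less RNA per cell cannot be told apart.

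Fold changes of the group were small. The log2 fold change was negative in 26 genes and positive in 12, with a median of -0.06, beside 0.00 over all genes tested. That median was 0.00 without control 2 or without knockout 2, and -0.13 without either of the other libraries. The median size without regard to sign was 0.09, beside 0.16 over all genes tested and 0.09 over the 1300 genes whose mean normalized count reached 1000. The 95% interval of the fold change lay within 1.5-fold in either direction for 31 of the 38 genes (81.6%, beside 40.8% of all genes tested) and for all 24 of those with a mean of at least 1000, where 91.7% of all genes at that level did so. In 31 of the 38 genes the difference between the groups was smaller than the larger of the differences within a group (81.6%, beside 76% of all genes tested). All of this is relative to the authors' scaling: when libraries were instead scaled to equal sums that include mitochondrial RNA, the median of all genes moved to 0.30 and that of the 38 genes to 0.23, which left the 38 genes 0.06 below the median of all genes.

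**Figure D2:**
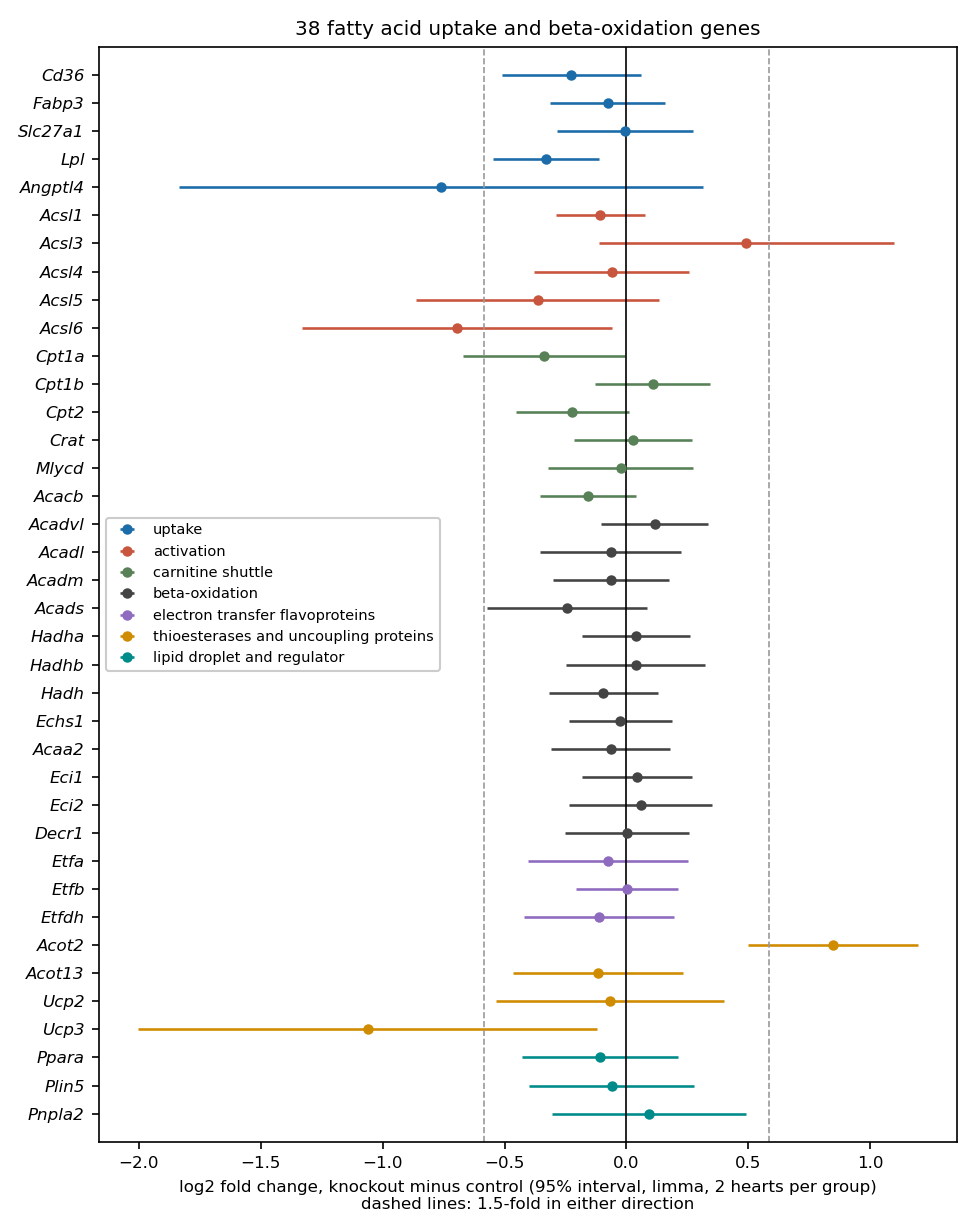
Log2 fold change (knockout minus control) of the 38 genes on the log2(normalized count + 1) scale, with 95% intervals from limma, coloured by role, and dashed lines at 1.5-fold. All 12 beta-oxidation enzymes and all 3 electron transfer genes have intervals inside the dashed lines, while Acot2 lies to the right of 0 and Ucp3, Acsl6, Lpl and Cpt1a lie to the left.

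In uptake, all 5 genes had a negative fold change and none passed the test, and under the scaling that includes mitochondrial RNA Cd36, Fabp3 and Slc27a1 turned positive, the last of them also under equal sums of nuclear genes and TMM. Lpl, the lipase that frees fatty acids from lipoproteins at the capillary wall, had a normalized count of 29281 and 30098 in the control hearts, against 25049 and 22265 in the knockout hearts. The groups did not overlap, and each knockout was below each control. The log2 fold change was -0.33 (standard error 0.09), with an unadjusted p of 0.00956 and an adjusted p of 0.664 by limma. Lpl kept a negative value in all 17 alternative settings, with -0.31 without control 2, -0.25 without knockout 2 and -0.03 under the scaling that includes mitochondrial RNA.

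Cd36, the fatty acid translocase of the plasma membrane, was at 11796 and 14648 in controls and 11567 and 10919 in knockouts. The 4 values did not overlap between groups but control 1 and knockout 1 were close, and the log2 fold change was -0.23 (standard error 0.12, limma adjusted p = 0.829). It was -0.07 without control 2 and -0.38 without control 1. Fabp3 was at 17949 and 19425 in the control hearts, against 18912 and 16565 in the knockout hearts, so that its groups overlapped. Slc27a1, a fatty acid transport protein, was at 993 ± 84.0 (SD, n = 2) in the controls and 990 ± 86.0 (SD, n = 2) in the knockouts.

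Angptl4, a secreted inhibitor of lipoprotein lipase and a PPAR target, was at 88.0 and 213 in controls and 63.4 and 102 in knockouts. Control 2 stood apart from the other 3 hearts, and the groups overlapped. The log2 fold change of -0.76 had a standard error of 0.44 (limma adjusted p = 0.848). It was -0.13 without control 2 and -1.39 without control 1.

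Activation is dominated in the heart by Acsl1, and so it was here. Acsl1 was at 8657 and 8760 in the control hearts, against 8249 and 7926 in the knockout hearts. Both knockouts lay below both controls, by a log2 fold change of -0.11 (standard error 0.08, limma adjusted p = 0.89). Its count was 13.9 and 12.5 times the sum of the other 4 synthetases in the controls, and 14.1 and 13.6 times in the knockouts. These ranges overlap (exact two-sided permutation p = 0.667). Per kb of exon the ratio was 7.30 and 6.59 in controls and 7.09 and 6.99 in knockouts. Acsl6, a synthetase best known from the brain, was at 110 and 133 in controls and 60.1 and 92.6 in knockouts. Its groups did not overlap, and its log2 fold change was -0.69 (standard error 0.26, unadjusted p = 0.0371, adjusted p = 0.798 by limma). Without knockout 1 that value was -0.39.

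Acsl3, a synthetase of the endoplasmic reticulum and lipid droplets, was the one member of this role with a positive value. It was at 61.6 and 64.7 in the control hearts, against 74.1 and 107 in the knockout hearts (log2 fold change 0.49, standard error 0.25, limma adjusted p = 0.815), and the value was 0.23 without knockout 2. Acsl4 did not overlap between groups either, yet its 4 values ran only from 233 to 251. Acsl5 overlapped, at 204 and 253 against 206 and 151.

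In the carnitine shuttle, the muscle and liver forms of carnitine palmitoyltransferase 1, the rate-controlling step of entry, had values of opposite sign. Cpt1b, the muscle form, was at 4945 and 4978 in controls and 5760 and 4962 in knockouts. Knockout 2 lay between the controls, and the log2 fold change was 0.11 (standard error 0.10, limma adjusted p = 0.909). Without knockout 1 it was 1e-04, so that the sign of Cpt1b rested on that heart. Cpt1a, the liver form, was at 631 and 779 in the control hearts, against 531 and 581 in the knockout hearts, without overlap (log2 fold change -0.34, standard error 0.14, unadjusted p = 0.0481, adjusted p = 0.806 by limma). It was -0.19 without control 2. Within each heart the ratio of Cpt1b to Cpt1a counts was 7.83 and 6.39 in controls and 10.9 and 8.55 in knockouts. Per kb of exon it was 17.8 and 14.5 in controls and 24.6 and 19.4 in knockouts. The ratio does not depend on the scaling between libraries. Both knockouts were above both controls, with a log2 difference of 0.44 and an exact two-sided permutation p of 0.333, the smallest that 2 against 2 can give. Adjusted over the 4 ratios tested, the p was 0.444.

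Of Cpt1b's transcript sequence, 81% of 31-base words also occur in the annotated gene Gm44502, and its reads could be split between both. Gm44502 had a mean of 12.2 in the control hearts, against 12.8 in the knockout hearts, and the sum with Cpt1b changed no call.

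Cpt2, which remakes acyl-CoA inside the inner membrane, was at 1545 and 1700 in controls and 1425 and 1355 in knockouts. Its groups did not overlap, with a log2 fold change of -0.22 (standard error 0.10, unadjusted p = 0.0586 and adjusted p = 0.806 by limma). Acacb, whose product malonyl-CoA blocks carnitine palmitoyltransferase 1, was at 4731 and 4827 in the control hearts, against 4442 and 4136 in the knockout hearts (log2 fold change -0.16, limma adjusted p = 0.828). Mlycd, which breaks malonyl-CoA down, was at 703 ± 84.4 (SD, n = 2) and 689 ± 28.7 (SD, n = 2). The ratio of Acacb to Mlycd counts within a heart was 7.36 and 6.33 in controls and 6.26 and 6.19 in knockouts (exact two-sided permutation p = 0.333). Per kb of exon it was 2.27 and 1.95 in controls and 1.93 and 1.91 in knockouts. Crat, which makes acetylcarnitine, was at 3991 ± 350.1 (SD, n = 2) and 4059 ± 275 (SD, n = 2).

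The 12 enzymes of the beta-oxidation cycle had the smallest differences of the 7 roles, with a median size of 0.06 on the log2 scale. Their log2 fold changes ran from -0.24 for Acads to 0.12 for Acadvl, with 6 positive and 6 negative and a median of -0.01. Groups overlapped in all 12, beside 9359 of all 14522 genes tested. All 12 intervals lay within 1.5-fold, beside 40.8% of all genes tested and 91.7% of those with a mean of at least 1000. Hadhb, the beta subunit of the trifunctional protein and the highest of the 12 by normalized count, was at 10423 and 12339 in the control hearts, against 12524 and 10827 in the knockout hearts. Each group spanned nearly the same range. Of Hadhb's 31-base words, 62.1% also occur in other genes, nearly all in Gm13910, whose mean was 383 in controls and 360 in knockouts.

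Hadha, the alpha subunit, was at 9820 and 10673 in the control hearts, against 11085 and 9991 in the knockout hearts. The genes of this pair lie head to head on chromosome 5 of GRCm38, Hadha at chr5:30118304-30155162 and Hadhb at chr5:30155248-30184593, with 85 bases between them. Their log2 fold changes were 0.04 and 0.04. In both genes control 1 was the lowest library and knockout 1 the highest.

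The acyl-CoA dehydrogenases start each turn of the cycle and differ in chain length. Acadvl, for very long chains, was at 6198 and 6793 in controls and 7331 and 6740 in knockouts (log2 fold change 0.12, standard error 0.09, limma adjusted p = 0.898). Acadl, for long chains, was at 4270 ± 619 (SD, n = 2) and 4063 ± 235 (SD, n = 2). Acadm, for medium chains, was at 7312 ± 588 (SD, n = 2) and 6999 ± 525 (SD, n = 2). Acads, for short chains, had the largest difference of the 12, at 1082 and 1274 in the control hearts, against 1087 and 903 in the knockout hearts (log2 fold change -0.24, standard error 0.14, limma adjusted p = 0.837). Control 1 and knockout 1 had almost the same value, and the fold change was -0.13 without control 2 and -0.11 without knockout 2.

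The remaining 6 enzymes, Hadh, Echs1, Acaa2, Eci1, Eci2 and Decr1, carry out the later steps or prepare unsaturated chains. Their log2 fold changes lay between -0.09 and 0.06. Acaa2, the last enzyme of the cycle, was at 5254 and 5075 in controls and 5353 and 4554 in knockouts.

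The electron transfer flavoprotein and its dehydrogenase hand the electrons of the first step to ubiquinone. Etfdh, the dehydrogenase, was at 4339 and 5432 in the control hearts, against 4728 and 4260 in the knockout hearts (log2 fold change -0.11, standard error 0.13). Etfa was at 1802 ± 325 (SD, n = 2) and 1695 ± 32.5 (SD, n = 2), and Etfb at 2398 ± 128 (SD, n = 2) and 2399 ± 45.2 (SD, n = 2). All 3 overlapped between groups. Etfb shares 62% of its 31-base words with Gm45233, and its reads could be split between both.

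Thioesterases and uncoupling proteins held the largest difference in each direction. Acot2, which releases free long-chain fatty acid from acyl-CoA in the mitochondrial matrix, was at 459 and 558 in controls and 991 and 838 in knockouts. The higher control was well below the lower knockout. The log2 fold change was 0.85 (standard error 0.14, 95% interval 0.50 to 1.20), with an unadjusted p of 0.000945 and an adjusted p of 0.299 by limma. It stayed positive in all 17 alternative settings, from 0.71 without control 1 to 1.14 under the scaling that includes mitochondrial RNA, with adjusted p between 0.000545 and 0.761. Besides DESeq2, that scaling also called it (limma adjusted p = 0.0358).

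Acot2 has close relatives, and 37.3% of its 31-base words also occur in other genes, 29.9% in Acot1. Acot1, the cytosolic relative, was at 82.1 and 106 in the control hearts, against 116 and 91.0 in the knockout hearts, with overlap. Summed with Acot1, the log2 fold change was 0.76 (limma adjusted p = 0.417). Of the 8 other acyl-CoA thioesterases that were tested, Acot1 included, none passed the test, and their median was -0.06. Acot13, a small thioesterase of the outer mitochondrial side, was at 1119 and 1452 in controls and 1234 and 1122 in knockouts.

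Ucp3, the uncoupling protein of muscle and a PPAR target, was at 242 and 594 in the control hearts, against 184 and 179 in the knockout hearts. Both knockouts lay below both controls, but the controls differed widely, and the gap from control 1 to the knockouts was smaller than that between the controls. The log2 fold change was -1.06 (standard error 0.39), with an unadjusted p of 0.0328 and an adjusted p of 0.797 by limma. Without control 1 it was -1.71 (limma adjusted p = 0.0329), with control 2 alone against both knockouts and taken to vary as they do, and without control 2 it was -0.42. The size of the difference thus rested on control 2.

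Ucp2, the widely expressed relative, lies 6904 bases downstream of Ucp3 on chromosome 7 (chr7:100493337-100502020, GRCm38). It was at 290 and 311 in controls and 240 and 343 in knockouts. The ratio of Ucp3 to Ucp2 counts within a heart was 0.84 and 1.91 in the control hearts, against 0.77 and 0.52 in the knockout hearts (exact two-sided permutation p = 0.333). Per kb of exon it was 1.86 and 4.26 in controls and 1.71 and 1.16 in knockouts, so by that measure Ucp3 stood above Ucp2 in each heart.

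**Figure D3:**
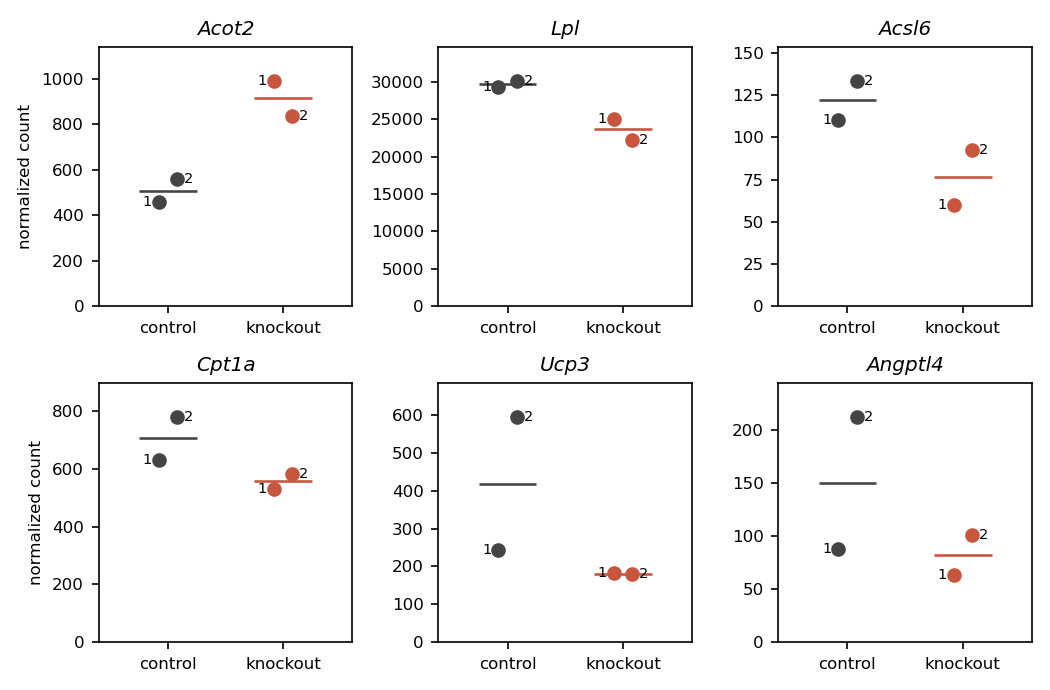
Normalized count by heart (axes from 0) of the 5 genes with an unadjusted p under 0.05 and of Angptl4. Points are hearts with their replicate number and lines are group means. Acot2 is separated upward in both knockouts, Lpl, Acsl6 and Cpt1a lie lower in both, and in Ucp3 and Angptl4 control 2 is far above the other 3 hearts.

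The regulator and lipid droplet genes overlapped between groups. Ppara was at 404 and 370 in controls and 385 and 335 in knockouts (log2 fold change -0.11, standard error 0.13). Plin5, which links lipid droplets to mitochondria, was at 861 ± 139 (SD, n = 2) and 822 ± 57.6 (SD, n = 2). Pnpla2, the triglyceride lipase ATGL, was at 975 and 1343 in the control hearts, against 1289 and 1158 in the knockout hearts.

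The other genes of the pathway were read from lists of uptake, shuttle, mitochondrial and peroxisomal oxidation, thioesterases, triglyceride storage, nuclear receptor regulators, further PPAR targets, ketone use and fatty acid synthesis. Of 122 genes, 114 were tested and limma called 0. Without a mean-variance trend limma called 1, Fgf21 (adjusted p = 0.0308), while edgeR and DESeq2 called 0. Fgf21 was at 0 in both controls and entered the test only through the knockouts, so its result does not speak for the list. At an unadjusted p under 0.05 stood 14 (12.3%, beside 6.11% of all genes tested), 4 higher, with Fgf21 among them, and 10 lower. Both knockouts lay above both controls in 16 (14%, beside 18.1% of all genes tested) and below in 28 (24.6%, beside 17.5%). The median log2 fold change was -0.08, and 0.22 under the scaling that includes mitochondrial RNA, which is 0.08 below all genes tested. The 8 that were not tested, Slc27a6, Acot4, Acot12, Plin1, Cidec, Vnn1, Cyp4a10 and Cyp4a14, stayed under 10 in each of the 4 libraries.

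Acaca, the acetyl-CoA carboxylase of fatty acid synthesis and the relative of Acacb, was at 279 and 205 in controls and 399 and 458 in knockouts. Its log2 fold change of 0.84 (standard error 0.18, unadjusted p = 0.00342, adjusted p = 0.53 by limma) was the largest of the synthesis list. Fasn, the fatty acid synthase, was at 515 and 423 in the control hearts, against 782 and 555 in the knockout hearts (log2 fold change 0.50, limma adjusted p = 0.798), and the value was 0.25 without knockout 1. Of the 14 synthesis and elongation genes, 8 were positive and 6 negative, with a median of 0.10. In 6 of the 14 both knockouts lay above both controls (beside 18.1% of all genes tested), and in 1 below (beside 17.5%).

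Ppard, the PPAR form that muscle shares with many tissues, was at 137 and 140 in controls and 213 and 196 in knockouts (log2 fold change 0.56, standard error 0.15, unadjusted p = 0.00924, adjusted p = 0.664 by limma). The coactivator Ncoa2 was at 1272 and 1016 in the control hearts, against 807 and 875 in the knockout hearts (log2 fold change -0.44, limma adjusted p = 0.74). Ppargc1a, the PGC-1alpha coactivator, was at 1293 and 1331 against 1232 and 1288. Of the 17 regulators, 11 were positive and 6 negative, with a median of 0.05.

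Lpin1, which makes the diacylglycerol used for triglyceride, was at 2903 and 2852 in controls and 2351 and 2222 in knockouts (log2 fold change -0.33, standard error 0.08, unadjusted p = 0.00667, adjusted p = 0.625 by limma). Of the 17 storage and lipolysis genes tested, 15 were negative and 2 positive, G0s2 and Abhd5, with a median of -0.14, where the scaling that includes mitochondrial RNA gave 15 positive and 2 negative. In 6 of the 17 both knockouts lay below both controls (beside 17.5% of all genes tested), and in 2 above (beside 18.1%). Gpihbp1, which holds lipoprotein lipase at the capillary wall, was at 545 and 564 in the control hearts, against 469 and 450 in the knockout hearts (log2 fold change -0.27, limma adjusted p = 0.806). Abcd2, a peroxisomal fatty acid transporter, was at 88.9 and 83.5 in controls and 61.0 and 60.4 in knockouts (log2 fold change -0.50, limma adjusted p = 0.806). Acadsb, a dehydrogenase for branched short chains, was at 1123 and 1308 in the control hearts, against 989 and 914 in the knockout hearts (log2 fold change -0.35, limma adjusted p = 0.77). Of the remaining lists, the further mitochondrial enzymes had 5 positive and 11 negative values, the peroxisomal enzymes 4 and 10, the genes of uptake and binding 4 and 7, those of the shuttle 2 and 6, those of ketone use 0 and 6 and the further PPAR targets 3 and 8. These directions hold for the authors' scaling, and the scaling that includes mitochondrial RNA gave every one of these lists a positive median.

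Among further PPAR targets, Pdk4, the kinase that shuts pyruvate dehydrogenase when fat is burnt, was at 1404 and 5258 in controls and 1506 and 1376 in knockouts. Control 2 again stood alone, as in Ucp3 and Angptl4, and the other 3 hearts were alike. Its log2 fold change was -0.92 and turned to 0.04 without control 2. Without control 1 it was -1.87 and limma called it (adjusted p = 0.00606), but control 2 then stood alone for its group and the spread came from the knockouts only. Fgf21, a secreted hormone, was at 0 in both controls and at 17.3 and 19.1 in the knockouts, at least 5.22-fold higher when 3 counts per library are taken as the limit that a count of 0 allows (limma adjusted p = 0.547). It entered the test only through the knockouts. Cyp4b1 was at 205 and 166 in the control hearts, against 144 and 118 in the knockout hearts (log2 fold change -0.50, limma adjusted p = 0.798).

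**Figure D4:**
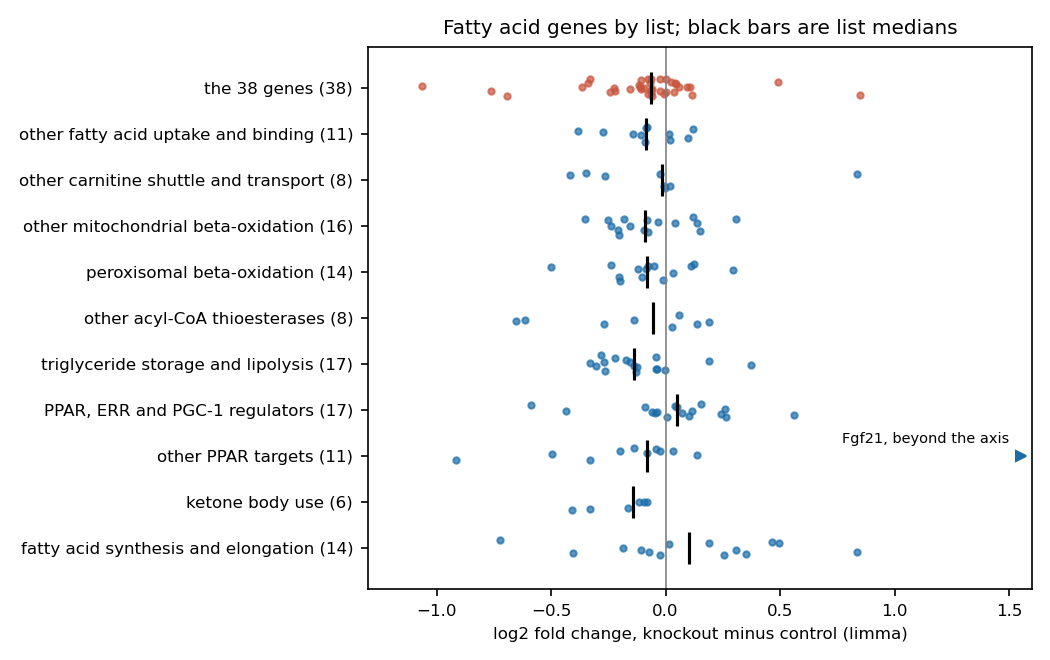
Log2 fold change (knockout minus control) of each tested gene, with the 38 genes in the top row and the other lists below, the number of genes in brackets and the median as a black bar. Every list median lies between -0.14 and 0.10, with Fgf21 beyond the right end of the axis.

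Cell type markers showed what else the hearts could hold. The 10 cardiomyocyte markers summed to 607469 to 636256 normalized counts in all 4 libraries, and Myl7, the atrial light chain, was at 0 in 3 libraries and at 1.53 in knockout 2. The labels describe whole hearts, and whether atrial tissue was in the samples was not tested. All 7 adipocyte markers were under 10 in every library, Cidec and Lep at 0. Of 6 brown adipocyte markers, 2 were under 10 in every library, among them Ucp1, at 0 throughout. The 6 summed to 3361 to 3567 in controls and 3203 to 3411 in knockouts, mostly from Cox8b and Ppargc1a. Lpl and Cd36 are also transcripts of fat cells. Of 8 skeletal muscle markers, 5 were under 10, and Acta1 was at 2801 and 4253 against 2670 and 1662. Endothelial markers summed to 11424 to 12566 in controls and 12053 to 13265 in knockouts, fibroblast markers to 14916 to 16148 and 11637 to 14628, smooth muscle and pericyte markers to 12823 to 14350 and 11852 to 14278, and macrophage markers to 2279 to 3296 and 2387 to 2435. The 6 erythroid markers summed to 14456 to 18969 in the controls and knockout 1 but to 41914 in knockout 2. Their part in the results was not tested, and no marker passed the limma threshold, where 2, Acta1 and Cd68, had an unadjusted p under 0.05.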

How the data were processed

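The deposited table holds a signal of normalized counts per gene: the authors aligned reads with STAR 2.7.3a to GRCm38.p6, quantified them with Salmon 1.1.0, summarised them by gene and divided them by DESeq2 1.26.0 size factors. Dividing each library's deposited signal by its lowest non-zero entry gave whole numbers for 100% of entries (tolerance 0.001), so reads could be recovered. The authors' columns of fold changes and p-values were not used.

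The 14522 genes that reached 10 normalized counts in 2 or more of the 4 libraries were tested with limma 3.58.1 in R 4.3.3, two-sided, on log2(normalized count + 1) with the trend option, adjusted by Benjamini-Hochberg (threshold 0.05). Ratios within a heart were compared by exact permutation. edgeR 4.0.16 and DESeq2 1.42.0 on recovered reads, and other settings, served as alternatives, and the sum of Acot2 with Acot1 and of Cpt1b with Gm44502 was added after seeing the data. The tests were checked on simulated data. Exon lengths, positions and 31-base words came from GENCODE vM21, and figures from Python 3.11.15 and matplotlib 3.10.9.

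The members and lists were chosen with earlier results of these data known. Values in every heart are given for each member with an unadjusted p under 0.05 and for the highest member of each role. Of the other lists, genes with an unadjusted limma p under 0.05 are described above, except Scp2, Prkag2, Plin3 and Oxsm. In these both knockouts lay below both controls, with log2 fold changes of -0.24, -0.35, -0.26 and -0.40. Ppargc1a, Pdk4, G0s2 and Abhd5 were named after their values were seen. Replicates are separate mice.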

Additional observations from a re-analysis of the deposited data

Results flagged for a closer look

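In the libraries of mice 585H and 586H, whose title and genotype labels contradict each other, 5 genes, among the 38 and the other pathway genes, stood above 1.5 times the highest control in both. Angptl4 was at 344 and 443 normalized counts, where the controls were at 88.0 and 213. Ucp3 was at 916 and 1002, where the controls were at 242 and 594. Pdk4, a PPAR target outside the 38 genes, was at 9084 and 8017, where the controls were at 1404 and 5258. Pex11a, a peroxisome division gene, was at 102 and 111, where the controls were at 57.7 and 66.0. Acot4, a thioesterase under 10 in the 4 compared hearts, was at 18.4 and 14.9, where the controls were at 9.77 and 5.39. No share of all genes tested stands beside this count of 5. Each of these libraries combines 2 technical runs. The labels give them no group, and the difference was not tested.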

How the results depend on the processing

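Limits: with 2 hearts a group, only large differences could pass the adjustment, and depth limits the low members (Acsl3, Acsl6, Angptl4). The labels do not say that a replicate number marks a shared litter or day, and with 2 pairs the deviations of same-numbered hearts correlated at 0.31. With the replicate block 0 members were called, and 6 instead of 5 (15.8%, beside 5.97% of all genes tested) had an unadjusted limma p under 0.05. Across the alternatives that number ran from 1 (2.63%, beside 6.4%) to 15 (39.5%, beside 19.5%). With the block the lowest limma adjusted p of a member was 0.176, and 30 instead of 17 of all genes were called. Over all genes 6 to 63 were called across the alternatives, 6 without a mean-variance trend, 63 by DESeq2, 36 (75% higher, beside 64.7%) with equal sums of all features, 33, 10, 6 and 6 without control 1, control 2, knockout 1 and knockout 2. The cause of each change below was not tested.

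Members called higher numbered 0 in the main fit and 1, Acot2, by DESeq2 and with equal sums of all features. Members called lower numbered 0 to 1 and other pathway genes called lower 0 to 1 when 1 library was left out, the calls being Ucp3 and Pdk4 without control 1, where control 2 alone stood for its group. Pdk4 ranged from -1.8685 to 0.0353 and Acot1 from -0.049 to 0.3215. Other pathway genes called higher numbered 1, Fgf21, without a mean-variance trend, and Fgf21 entered the test only through the knockouts. Lpl, Angptl4, Acsl3, Acsl5, Acsl6, Cpt1a, Cpt1b, Acadvl, Acot2 and Ucp3 kept their sign in all 17 alternatives, Cpt1b only at 1e-04 without knockout 1. Equal sums of all features moved the members' median to 0.2325 and turned Ssbp1 to 0.0653, Cd36 to 0.0714, Fabp3 to 0.2203, Slc27a1 to 0.2923, Acsl1 to 0.1905, Acsl4 to 0.237, Cpt2 to 0.0753, Mlycd to 0.273, Acacb to 0.1405, Acadl to 0.2323, Acadm to 0.2346, Acads to 0.0529, Hadh to 0.2032, Echs1 to 0.2725, Acaa2 to 0.2328, Etfa to 0.2213, Etfdh to 0.184, Acot13 to 0.1814, Ucp2 to 0.2284, Ppara to 0.1898, Ppargc1a to 0.2387, Gpihbp1 to 0.0244, Plin5 to 0.2374 on the log2 scale. Slc27a1 turned to 0.0093 with equal sums of nuclear genes, 0.0102 with TMM factors and 0.0023 in edgeR, and Etfb to -0.0025 in DESeq2. Leaving out 1 library turned members near 0, which ranged for Crat from -0.0639 to 0.1153, for Hadha from -0.0351 to 0.1147, for Hadhb from -0.0835 to 0.1598, for Eci2 from -0.0415 to 0.1606, for Decr1 from -0.0978 to 0.1024, for Plin5 from -0.2254 to 0.1061, for Pnpla2 from -0.1363 to 0.3249, for Slc27a1 from -0.0935 to 0.0838, for Mlycd from -0.1468 to 0.0986, for Acadl from -0.2134 to 0.0832, for Acadm from -0.1449 to 0.0193, for Echs1 from -0.0705 to 0.0209, for Etfa from -0.2611 to 0.1091, for Etfb from -0.0529 to 0.0558, for Etfdh from -0.2754 to 0.0486, for Acot13 from -0.3037 to 0.0721, for Eci1 from -0.0113 to 0.0989, for Ucp2 from -0.3251 to 0.1889, for Fabp3 from -0.1728 to 0.0184, for Acaa2 from -0.1812 to 0.0519. The log2 difference in the ratio of Acsl1 to the other synthetases ranged from -0.0045 to 0.1471.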

Other observations

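In 585H and 586H, 17 of the 38 genes (44.7%, beside 8.69% of all genes tested) were above the highest of the 4 compared hearts in both libraries, among them Cpt1b at 6296 and 6228, Cpt1a at 914 and 859, Slc27a1 at 1371 and 1361 and Acadvl at 7525 and 7635 normalized counts. Only Acsl6, at 50.7 and 59.6, and Echs1, at 1871 and 1948, were below the lowest of the 4 in both (5.26%, beside 8.79% of all genes tested). Acot2 was at 1285 in 585H and 774 in 586H. The share of nuclear normalized counts on the 38 genes was 1.87% and 1.94%, above 3 of the 4 compared hearts in 585H and above all 4 in 586H. Mitochondrial RNA took 56.2% of normalized counts in 585H and 63.6% in 586H. Fgf21 was at 21.9 and 0, Acaca at 388 and 229 and Ppard at 214 and 155 in 585H and 586H. These genes were picked after their values were seen, and no group was inferred from them.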
